A study of Mus musculus with 12 samples.

Results

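Cholesterol synthesis and sterol transport were followed here through 27 genes of the mouse small intestine, 18 enzymes that build cholesterol, 4 genes of the sterol-sensing SREBP system and 5 genes that move sterols. Members were the rows of both deposited FPKM tables (read counts scaled to gene length and library size) whose gene name was on the list, with the row of highest mean FPKM where a name repeated. All 27 were found among 54532 genes. The samples were small intestine of C57BL/6J mice, with Piezo1, a mechanically gated cation channel, knocked out in intestinal epithelial cells (CKO) or with the floxed allele alone (flox). Each genotype was taken without injury (control) and after induction of necrotizing enterocolitis (NEC), in which the bowel of the newborn is inflamed and dies, with 3 libraries in each of the 4 groups. The sources used here do not give the age of the mice, the Cre driver of the knockout or the way NEC was induced. The labels do not say whether the 3 libraries of a group are separate mice, so p-values measure the spread between these libraries.

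Cells make cholesterol from acetyl-CoA through mevalonate, isoprenoids, squalene and a long series of changes to the sterol ring, in the endoplasmic reticulum. When sterols in that membrane run low, the escort protein SCAP carries the SREBP transcription factors to the Golgi, where they are cut free to turn on the genes of the pathway, and when sterols are plentiful the INSIG proteins hold SCAP back. Enterocytes also absorb dietary and biliary cholesterol through NPC1L1, return sterols to the lumen through the ABCG5 and ABCG8 pair, and load cholesterol onto high-density lipoprotein through ABCA1.

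Depth ranged from 13057724 to 16821130 reads per library, recovered as whole numbers from the deposited values. Levels below are FPKM put on 1 scale for all 12 libraries, and changes are differences of log2(FPKM + 1), which understate the change of low genes. Piezo1 itself was listed at 1.09 to 1.45 FPKM in flox control and 0.931 to 1.72 in CKO control, ranges that overlap, and at 6.10 to 6.61 in flox NEC against 2.98 to 5.02 in CKO NEC. The uninjured libraries therefore show no drop of Piezo1 in this whole tissue, and CKO below means labelled CKO. Libraries of 3 groups stood apart. Flox control 3 had the distal marker Fabp6 at 490 FPKM and the proximal markers Fabp1 and Gata4 at 0.503 and 0.926, against 28.4 to 45.1, 315 to 774 and 10.8 to 14.8 in the other two flox controls. CKO control 3 had the lowest level of all 12 libraries for 14 of the 18 enzymes. CKO NEC 1 had Fabp1 at 575 FPKM and Gata4 at 13.3, against 2.28 and 6.35, and 0.309 and 0.883, in CKO NEC 2 and 3. Fabp1 and Gata4 were picked from a list of 6 proximal markers, and the rest of that list did not go with them. Summed, the rest was not lower in flox control 3 than in the other flox controls. In CKO NEC 1 it was below CKO NEC 3. The tissue label was checked with 10 enterocyte markers, whose summed level was 5672 to 8904 FPKM in control and 3808 to 5600 in NEC. Liver markers, of which 6 of 8 were under 1 FPKM in all control libraries of each genotype and 8 of 8 in all NEC libraries, summed to 19.5 FPKM at most.

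In flox mice, NEC libraries held more mRNA of the cholesterol pathway than control libraries. By limma with Benjamini-Hochberg adjustment over 14599 genes, 14 of the 27 members rose, 1 fell and 12 did not pass the test. Of all genes, 27.2% were called higher and 26.5% lower. The groups did not overlap for 16 of the members that were higher in NEC and 1 that was lower, beside 32.2% and 30.9% of all genes. The median change of the members was 0.63, against 0.00134 over all genes tested. The largest rises were those of the isoprenoid isomerase Idi1, the cholesterol exporter Abca1, squalene epoxidase Sqle and the SREBP anchor Insig1. Fdps passed the filter on low values through its NEC libraries alone, which favoured a rise with NEC before any test. It is included in the counts of members above and below, in either genotype. Its calls and its lack of overlap are therefore no support for a rise. In CKO mice 7 members rose and 3 fell, beside 20.2% and 23% of all genes, and the median change was 0.32 against -0.01 over all genes. The CKO groups did not overlap for 9 members higher and 3 lower, beside 24.5% and 27.3% of all genes. All 7 that rose in CKO, Fdps among them, also rose in flox, which is 50% of the flox calls and 100% of the CKO calls. In this bulk tissue, more cells of a type and more RNA per cell cannot be told apart. Condition and table are also the same split, so NEC and anything else that set the tables apart cannot be told apart.

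**Figure D1:**
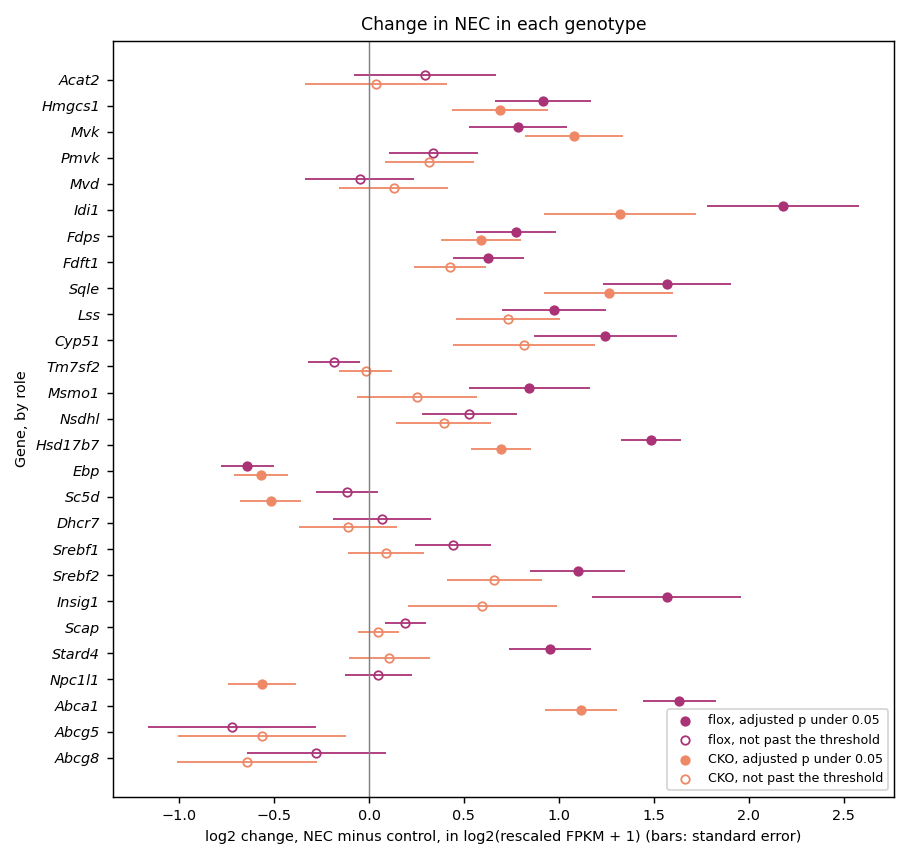
log2 change from control to NEC, with its standard error, for each of the 27 members in flox and in CKO (3 libraries a group, scale of log2 FPKM + 1), with filled points past the threshold. Idi1 has the largest change in both genotypes, 2.18 in flox and 1.32 in CKO, and 22 of the 27 members have the larger value in flox.

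Levels of cell type markers moved with the condition, though not all lists moved in 1 direction. Of 10 enterocyte markers, 3 rose and 4 fell with NEC in flox, and 1 rose and 4 fell in CKO. All 10 crypt cell division genes rose with NEC in both genotypes, their summed level being 13.0 to 45.8 FPKM in control and 108 to 146 in NEC. Of 10 fibroblast and matrix genes 7 rose in flox and 9 in CKO, with summed levels of 78.3 to 330.2 FPKM in control and 328 to 681 in NEC. The summed level of 10 macrophage genes was 131 to 152 FPKM in control and 51.5 to 77.8 in NEC, while single genes of that list went both ways, with 2 higher and 3 lower past the test in flox and 1 and 4 in CKO. Smooth muscle markers summed to 757 to 965 FPKM in flox control and 1880 to 2959 in flox NEC, and to 222 to 660 in CKO control and 559 to 2126 in CKO NEC, with 9 of 10 above 0 in each genotype, 3 of them called in each, and 1 called lower in flox. The mitochondrially encoded share of reads was 11.1% to 14.3% in flox control, 5.11% to 6.76% in CKO control, 3.80% to 4.52% in flox NEC and 3.47% to 4.43% in CKO NEC. The part of these in the changes of the sterol genes was not tested.

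The promoters of the members were read for the letters of 3 sequence elements that the literature ties to this pathway, the sterol regulatory element bound by SREBP, the CCAAT box bound by NF-Y and the GGGCGG box bound by Sp1. RefSeq windows of 250 bases before to 50 after the start (GRCm38.p6) matched 23 of the 27 members. On either strand, CCAAT stood in 20 of these 23 windows (87.0%), against 41.1% of the windows of 27025 genes. GGGCGG stood in 19 (82.6%, against 38.2%). Of the 15 enzymes with a window, 14 held CCAAT (all but Acat2) and 14 held GGGCGG (all but Pmvk). The strict sterol regulatory element stood in none of the 23 (0.0999% of all windows), TCACNCCAC in 1 (4.35%, against 1.44%) and CACCCCAC in 2 (8.70%, against 3.30%), the first of these hits overlapping the second in Hmgcs1. These are matches of letters and show neither binding nor its absence. The 27025 genes include those not expressed in this tissue, and the share among expressed genes alone was not taken. The gap to the members can therefore not be read as particular to this pathway. The upstream bases of 5 members are shown, 5′ to 3′ on the strand of the gene and ending before the annotated start, with CCAAT (or ATTGG on the other strand), GGGCGG (or CCGCCC), CACCCCAC and TCACNCCAC in capitals. Hmgcs1 and Acat2 are the members that hold CACCCCAC, and Hsd17b7, Srebf2 and Insig1 were chosen after their values were seen, as the 3 members of smallest p among those that rose in flox and hold both CCAAT and GGGCGG in the bases that can be shown, which end before the starts of both annotations used.
Hmgcs1 (chr13:119690101-119690350, + strand): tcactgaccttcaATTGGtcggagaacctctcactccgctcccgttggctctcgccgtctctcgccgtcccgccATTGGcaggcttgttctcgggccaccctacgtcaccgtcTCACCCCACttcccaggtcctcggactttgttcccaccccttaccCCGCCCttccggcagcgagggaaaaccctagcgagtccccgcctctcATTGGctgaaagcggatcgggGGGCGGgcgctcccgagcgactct
Acat2 (chr17:12960748-12960975, - strand): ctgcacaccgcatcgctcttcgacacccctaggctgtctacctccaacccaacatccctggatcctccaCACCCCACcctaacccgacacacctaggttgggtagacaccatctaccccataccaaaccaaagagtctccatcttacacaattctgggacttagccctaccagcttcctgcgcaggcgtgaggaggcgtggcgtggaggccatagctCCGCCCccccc
Hsd17b7 (chr1:169969242-169969455, - strand): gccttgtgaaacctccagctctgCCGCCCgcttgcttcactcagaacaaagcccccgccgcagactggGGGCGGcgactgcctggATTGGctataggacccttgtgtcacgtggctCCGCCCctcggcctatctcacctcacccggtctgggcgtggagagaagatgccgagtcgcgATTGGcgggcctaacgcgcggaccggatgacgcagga
Srebf2 (chr15:82147019-82147180, + strand): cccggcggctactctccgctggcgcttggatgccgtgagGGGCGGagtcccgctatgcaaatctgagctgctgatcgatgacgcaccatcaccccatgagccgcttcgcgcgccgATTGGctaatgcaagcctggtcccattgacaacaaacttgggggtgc
Insig1 (chr5:28071162-28071362, + strand): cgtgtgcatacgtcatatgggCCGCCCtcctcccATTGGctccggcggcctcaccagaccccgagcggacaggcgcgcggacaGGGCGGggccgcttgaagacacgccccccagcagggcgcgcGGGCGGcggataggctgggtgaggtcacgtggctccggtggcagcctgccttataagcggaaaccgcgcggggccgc

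The Hmgcs1 window holds 3 CCAAT and 2 GGGCGG matches and a single match to TCACNCCAC, spelled TCACCCCAC. Hsd17b7 holds 2 CCAAT and 3 GGGCGG matches, Insig1 1 and 3, and Srebf2 1 of each. Acat2, which did not pass the test in NEC in either genotype, holds CACCCCAC and 1 GGGCGG but no CCAAT in the bases shown.

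Of the 7 genes of the mevalonate and isoprenoid steps, 4 rose with NEC in flox and the same 4 in CKO, with Fdps as 1 of them. Idi1, which isomerises isopentenyl diphosphate into the second isoprenoid unit, had the highest ratio of its highest to its lowest library among the members. It stood at 1.32, 1.72 and 1.23 FPKM in flox control and 9.60, 13.3 and 7.71 in flox NEC, with no overlap. In CKO it stood at 5.37, 7.08 and 1.04 FPKM in control and 11.6, 9.67 and 11.2 in NEC, so that CKO control 1 and 2 lay between flox control and NEC and CKO control 3 lay below every other library. The log2 change was 2.18 ± 0.40 (SE) in flox (adjusted p = 0.000879) and 1.32 ± 0.40 in CKO (adjusted p = 0.0204), and without CKO control 3 the latter was 0.72 (adjusted p = 0.0181). The CKO call was lost without CKO NEC 1, at 1.28 (adjusted p = 0.0576). The ratio of mean levels was 7.15 in flox and 2.41 in CKO.

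Hmgcs1, the cytosolic synthase that makes HMG-CoA for the pathway, was at 24.95, 23.5 and 23.3 FPKM in flox control and 44.5, 51.4 and 42.8 in flox NEC. In CKO control it was at 32.1, 39.8 and 15.7 FPKM, the widest spread of the 4 groups, and in CKO NEC at 43.2, 42.8 and 47.6. Both genotypes reached NEC levels that did not overlap their controls, with changes of 0.92 ± 0.25 (adjusted p = 0.00979) and 0.69 ± 0.25 (adjusted p = 0.0462). The CKO call was lost without CKO control 3, at 0.31 (adjusted p = 0.0856), and without any 1 of the CKO NEC libraries (adjusted p from 0.0846 to 0.103). Mvk, mevalonate kinase, was at 5.67, 4.44 and 4.57 FPKM in flox control and 7.51, 10.8 and 9.30 in flox NEC. Its CKO libraries were at 6.16, 5.14 and 2.02 FPKM in control and 9.93, 9.61 and 9.82 in NEC. Mvk rose by 0.79 ± 0.26 in flox (adjusted p = 0.0245) and 1.08 ± 0.26 in CKO (adjusted p = 0.00676), and the flox call was lost without flox control 2 (adjusted p = 0.0672), flox control 3 (0.0602), flox NEC 2 (0.0848) or flox NEC 3 (0.0604).

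Fdps, farnesyl diphosphate synthase, had the lowest level of all members, on 10 to 117 reads per library. It was listed at 0.472, 0.339 and 0.248 FPKM in flox control, 0.366, 0.561 and 0.167 in CKO control, 0.731, 1.73 and 1.60 in flox NEC and 0.714, 1.46 and 1.02 in CKO NEC. No control library reached the lowest NEC library. The changes were 0.77 ± 0.21 in flox (adjusted p = 0.00943) and 0.59 ± 0.21 in CKO (adjusted p = 0.0415, and 0.129 without CKO control 3, 0.0785 without CKO control 1, 0.148 without CKO NEC 2 and 0.0735 without CKO NEC 3). In the GENCODE M21 annotation 26.7% of the exon bases of Fdps overlap the same-strand model Gm43738, so its count is uncertain. The remaining members of these steps did not pass the test in either genotype. Acat2, the cytosolic thiolase that opens the pathway, was at 25.004, 23.7 and 15.9 FPKM in flox control, 24.3, 32.5 and 22.6 in flox NEC, 37.1, 44.7 and 12.5 in CKO control and 24.2, 29.5 and 31.99 in CKO NEC, and its change was 0.29 ± 0.37 in flox and 0.04 ± 0.37 in CKO. Both the highest and the lowest Acat2 level of the study were CKO control libraries. Phosphomevalonate kinase Pmvk had values of 0.34 and 0.32, and the decarboxylase Mvd of -0.05 and 0.13, with adjusted p from 0.244 to 0.897. Pmvk was at 7.66, 8.56 and 4.54 FPKM in flox control and 10.3, 10.1 and 5.56 in CKO control. Mvd was at 22.3, 15.999 and 12.9 FPKM in flox control, 12.4, 19.6 and 16.96 in flox NEC, 20.8, 23.6 and 10.1 in CKO control and 17.3, 18.5 and 20.9 in CKO NEC. For both genes the lowest library of each control group was control 3.

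Among the 11 genes from squalene to the finished ring, 6 rose and 1 fell with NEC in flox, and 2 rose and 2 fell in CKO. Hsd17b7, the 3-ketosteroid reductase of C4 demethylation, was at 3.43, 4.02 and 4.71 FPKM in flox control and 12.3, 15.3 and 11.98 in flox NEC. The CKO libraries were at 6.56, 8.90 and 5.55 FPKM in control and 12.001, 10.9 and 12.4 in NEC, so that all 3 CKO controls lay above all 3 flox controls and below every NEC library. The change was 1.49 ± 0.16 in flox (adjusted p = 2.98e-05), the smallest adjusted p of the members in any comparison, and 0.70 ± 0.16 in CKO (adjusted p = 0.00494). Sqle, squalene epoxidase, the step that first adds oxygen, was at 5.79, 6.02 and 5.25 FPKM in flox control and 16.8, 23.1 and 17.1 in flox NEC. It was at 10.2, 10.8 and 2.93 FPKM in CKO control and 14.9, 20.4 and 19.9 in CKO NEC. Each NEC library exceeded each control library, with changes of 1.57 ± 0.34 (adjusted p = 0.00249) and 1.26 ± 0.34 (adjusted p = 0.0116), and 0.75 in CKO without CKO control 3 (adjusted p = 0.00669).

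Another 4 enzymes of this stretch rose in flox and did not pass the test in CKO, and the difference between the genotypes did not pass for any of them (adjusted p from 0.493 to 0.772). Cyp51, the sterol 14-demethylase, was at 14.02, 13.7 and 11.2 FPKM in flox control and 27.3, 38.2 and 31.3 in flox NEC, and at 22.1, 26.7 and 6.68 in CKO control and 24.7, 28.2 and 34.8 in CKO NEC. The flox groups did not overlap, while CKO control 2 lay above CKO NEC 1, and the changes were 1.24 ± 0.38 (adjusted p = 0.0157) and 0.82 ± 0.38 (adjusted p = 0.101). Squalene synthase Fdft1 had values of 0.63 ± 0.19 in flox (adjusted p = 0.0152) and 0.43 ± 0.19 in CKO (adjusted p = 0.0877), and lanosterol synthase Lss of 0.97 ± 0.28 (adjusted p = 0.0113) and 0.73 ± 0.28 (adjusted p = 0.0501). The methylsterol oxidase Msmo1 was at 7.71, 7.81 and 9.80 FPKM in flox control, 13.3, 19.3 and 15.6 in flox NEC, 15.1, 20.5 and 6.43 in CKO control and 12.2, 16.4 and 17.99 in CKO NEC. Its change was 0.84 ± 0.32 in flox (adjusted p = 0.0419) and 0.25 ± 0.32 in CKO (adjusted p = 0.548), and the flox call was lost without any 1 of the 6 flox libraries (adjusted p from 0.0502 to 0.129). The calls of Cyp51 and Fdft1 in flox were lost without flox NEC 2 (adjusted p = 0.0549 and 0.0592), and that of Fdft1 also without flox control 2 (0.0546). Fdft1 shares 18.3% of its exon bases with the opposite-strand gene Ctsb, and whether the counting used strand is not given.

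Of the late steps, 1 enzyme fell in both genotypes. Ebp, the isomerase that moves a ring double bond, was at 24.7, 20.3 and 25.2 FPKM in flox control and 22.4, 25.8 and 24.97 in CKO control. Its NEC libraries were at 12.7, 15.3 and 15.8 FPKM in flox and 14.7, 14.5 and 19.5 in CKO, all below every control library. Ebp fell by 0.64 ± 0.14 in flox (adjusted p = 0.00262) and by 0.57 ± 0.14 in CKO (adjusted p = 0.00740). Sc5d, lathosterol oxidase, was at 18.3, 19.1 and 27.2 FPKM in flox control and 18.2, 20.97 and 19.3 in flox NEC, groups that overlap. In CKO it was at 28.8, 31.4 and 32.6 FPKM in control and 18.4, 20.1 and 26.01 in NEC, and it fell by 0.52 ± 0.16 (adjusted p = 0.0239, and 0.0672 without CKO control 3, 0.0599 without CKO control 2, 0.0901 without CKO NEC 1 and 0.0707 without CKO NEC 2). Dhcr7, which makes cholesterol from its last precursor, had values of 0.07 in flox (adjusted p = 0.841) and -0.11 in CKO (adjusted p = 0.754). Its highest libraries were CKO control 1 and 2, at 12.8 and 13.6 FPKM. Nsdhl, a dehydrogenase of C4 demethylation, had values of 0.53 and 0.39, and the sterol reductase Tm7sf2 of -0.19 and -0.02. None of these passed the test. Tm7sf2 was at 2.77, 2.67 and 3.37 FPKM in flox control, 2.62, 2.60 and 1.83 in CKO control, 2.05, 2.46 and 2.90 in flox NEC and 2.22, 2.09 and 2.56 in CKO NEC. In GENCODE M21, 12.1% of its exon bases overlap the same-strand gene Vps51, and its coordinates differ from those deposited. The count of Tm7sf2 is therefore uncertain. The calls that were lower in CKO are scale dependent, since scaling by total reads without mitochondrial genes, under which the median of all genes there was 0.22 in place of -0.01, left no member lower.

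**Figure D2:**
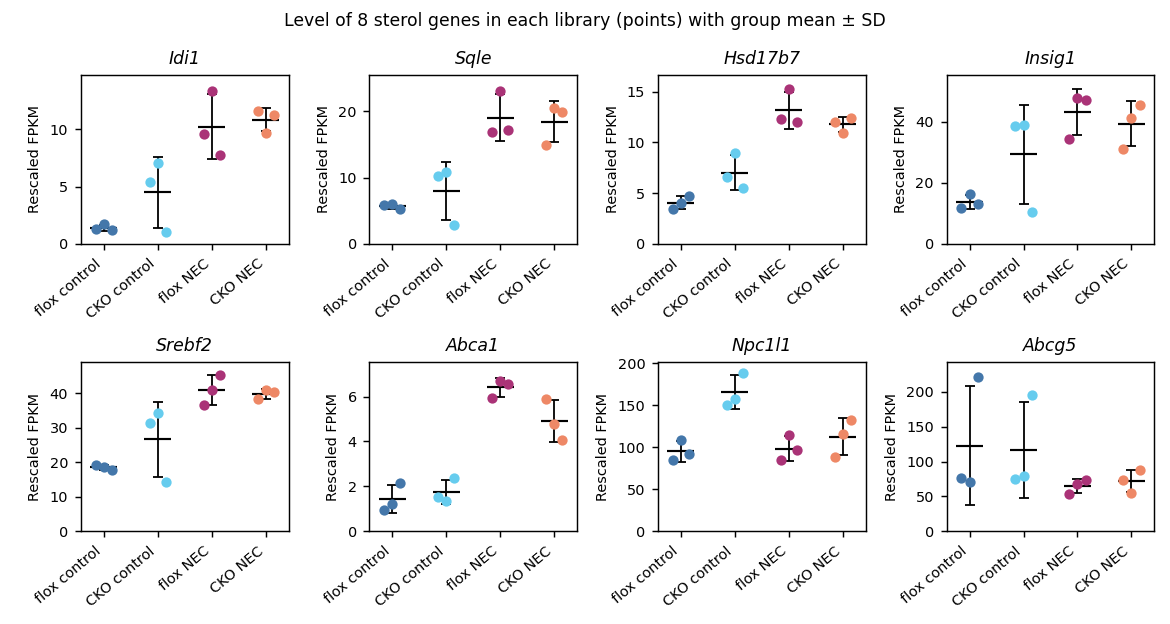
Rescaled FPKM of 8 members in each of the 12 libraries, by group, each point a library, each line the mean of 3 and each bar its SD. CKO control 3 of Idi1 (1.04 FPKM) and Insig1 (10.6 FPKM) lies with the flox controls, away from CKO control 1 and 2.

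Of the 4 genes of the SREBP system, 2 rose with NEC in flox and none passed the test in CKO. Srebf2, which encodes the SREBP factor with the closest ties to cholesterol synthesis and is its own target, was at 19.2, 18.6 and 17.8 FPKM in flox control and 36.7, 40.97 and 45.3 in flox NEC. In CKO it was at 31.4, 34.3 and 14.1 FPKM in control and 38.2, 41.04 and 40.4 in NEC. NEC exceeded control in all libraries of both genotypes, by 1.10 ± 0.25 in flox (adjusted p = 0.00346) and 0.66 ± 0.25 in CKO (adjusted p = 0.0529), and without CKO control 1 or 2 the CKO change passed the test (adjusted p = 0.0361 and 0.01998). Insig1, a target of SREBP that closes the feedback loop, was at 11.9, 16.4 and 13.2 FPKM in flox control and 34.4, 47.8 and 47.2 in flox NEC, a change of 1.57 ± 0.39 (adjusted p = 0.00586). CKO control libraries of Insig1 were at 38.6, 38.96 and 10.6 FPKM, of which 2 lay within the CKO NEC values of 31.2, 41.1 and 45.6. The CKO change was 0.60 ± 0.39 (adjusted p = 0.243), and it was 0.00275 without CKO control 3. Srebf1, whose products drive fatty acid synthesis as well, was at 19.6, 18.3 and 15.6 FPKM in flox control and 20.05, 25.6 and 28.5 in flox NEC, with CKO libraries at 26.6, 30.1 and 16.8 in control and 25.2, 22.9 and 28.4 in NEC. Its change of 0.44 ± 0.20 in flox did not pass the test (adjusted p = 0.0839), although the flox groups did not overlap. Scap, the escort, had the narrowest range of the members relative to its level, 6.06 to 8.38 FPKM over all 12 libraries. It was at 6.55, 6.06 and 6.09 FPKM in flox control, 6.67, 7.72 and 7.41 in flox NEC, 7.73, 6.96 and 6.87 in CKO control and 6.36, 7.78 and 8.38 in CKO NEC, with changes of 0.19 in flox and 0.05 in CKO, neither past the test.

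Of the 5 transport genes, 2 rose with NEC in flox, and 1 rose and 1 fell in CKO. Abca1, the exporter that is a target of the oxysterol receptor LXR, was at 0.959, 1.21 and 2.13 FPKM in flox control and 1.51, 1.35 and 2.36 in CKO control. In NEC it was at 5.94, 6.71 and 6.58 FPKM in flox and 5.91, 4.77 and 4.07 in CKO. Every NEC library exceeded every control library, and the changes were 1.63 ± 0.19 (adjusted p = 5.19e-05) and 1.12 ± 0.19 (adjusted p = 0.00105). Stard4, a carrier of cholesterol through the cytosol that SREBP induces, was at 24.7, 26.5 and 36.95 FPKM in flox control and 52.7, 63.6 and 55.1 in flox NEC, without overlap, a change of 0.95 ± 0.21 (adjusted p = 0.00316). In CKO it was at 48.3, 63.8 and 41.7 FPKM in control and 41.8, 55.8 and 68.98 in NEC, which overlap, a change of 0.11 ± 0.21 (adjusted p = 0.711).

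Npc1l1, the importer of cholesterol on the brush border, was at 84.3, 108 and 92.2 FPKM in flox control and 84.5, 114 and 96.4 in flox NEC, a difference of 0.05 ± 0.18 (adjusted p = 0.834). CKO control libraries were the highest of the study, at 150.0, 157 and 189 FPKM, and CKO NEC libraries were at 88.9, 116 and 133. Npc1l1 fell in CKO by 0.56 ± 0.18 (adjusted p = 0.0242), a call lost without CKO control 3 (adjusted p = 0.0834) or CKO NEC 1 (0.0929). Abcg5 and Abcg8, whose products work as 1 exporter and whose genes lie head to head on chromosome 17, did not pass the test in either genotype. They share 82 exon bases on opposite strands. Abcg5 was at 75.98, 71.1 and 221 FPKM in flox control and 75.4, 78.8 and 195 in CKO control, and Abcg8 at 39.98, 45.2 and 99.2 and 66.7, 56.3 and 123. In both genotypes control 3 was the highest for both genes. Flox control 3 is also the library with ileal Fabp6 at 490 FPKM, while Fabp6 was 58.5 FPKM in CKO control 3 and 17.1 and 31.0 in the other two CKO controls. Abcg5 was at 53.2, 67.5 and 73.2 FPKM in flox NEC and 73.4, 55.3 and 87.3 in CKO NEC, and Abcg8 at 37.4, 52.2 and 51.1 and 46.3, 37.7 and 67.9. The change of Abcg5 in flox was -0.72 ± 0.44 (adjusted p = 0.190), and without flox control 3 it was -0.20.

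**Figure D3:**
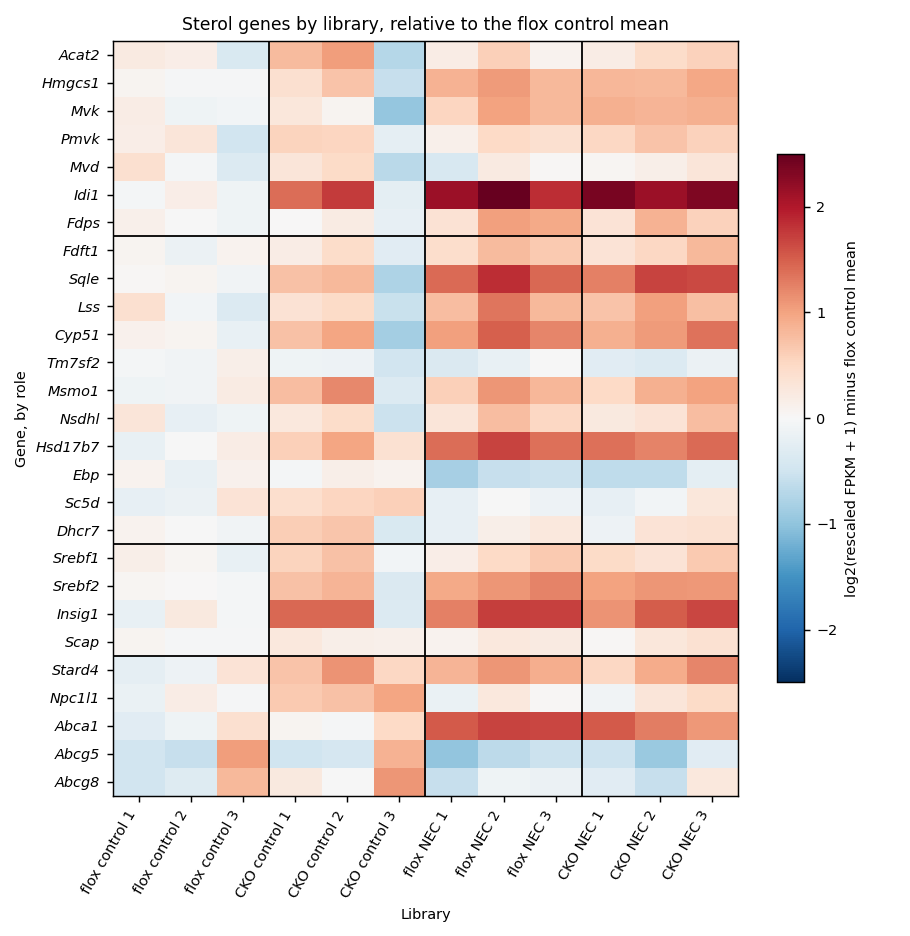
Level of each of the 27 members in each of the 12 libraries, as log2(rescaled FPKM + 1) less the gene's flox control mean, with members ordered by role (red higher, blue lower). CKO control 3 is the lowest of 12 for 14 of the 18 enzymes, while CKO control 1 and 2 sit above the flox control columns for most of them.

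Without injury, the CKO mean lay above the flox mean for most members, but no member passed the test over 13300 genes. The count of all genes called was 1, which is 0.00752%. An unadjusted p under 0.05 was found for 4 of the 26 members tested and for 3849 of the 13300 genes, which is the larger share. On the recovered reads, limma-voom called 0 members, beside 288 higher and 72 lower of all genes. Of the 26 members tested (Fdps was too low), 23 lay above 0 and 3 below, beside 7234 and 6066 of the 13300 genes. The median was 0.29 against 0.04 over all genes. Npc1l1 was 0.80 ± 0.15 higher (adjusted p = 0.0547), Stard4 0.78 ± 0.21 (adjusted p = 0.0768), Hsd17b7 0.65 ± 0.18 (adjusted p = 0.0818) and Sc5d 0.52 ± 0.17 (adjusted p = 0.1002). These 4 and Scap were higher in every CKO library than in any flox library, and Tm7sf2 was lower in every one, beside 21.8% and 12.7% of all genes without overlap. Idi1 had the largest difference, 0.96 ± 0.48, with an adjusted p of 0.227, and Insig1 differed by 0.84 ± 0.47 (adjusted p = 0.271).

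The spread of the CKO controls came from opposite libraries. CKO control 2 had the highest level of the 6 controls for 14 of the 18 enzymes and CKO control 3 the lowest for 14. The median log2 level of the 18 enzymes was 3.85, 3.98 and 2.84 in the 3 CKO controls and 3.19, 3.21 and 3.26 in the 3 flox controls. With flox control 3 and CKO control 3 both left out, a choice made after seeing the data, 13 members were called higher in CKO (adjusted p from 0.0403 to 0.0489) and none lower, beside 8.25% and 2.37% of all genes. They were Acat2, Idi1, Sqle, Cyp51, Msmo1, Hsd17b7, Sc5d, Dhcr7, Srebf1, Srebf2, Insig1, Stard4 and Npc1l1, and the differences of Idi1, Insig1 and Stard4 were then 1.51, 1.41 and 1.09. CKO control 3 had been singled out by its low levels of enzymes that are themselves tested here. These 13 calls are therefore not independent of that choice and are no support for a difference. Without CKO control 3 alone, 0 members and 0 of all genes were called and the median was 0.55. Without flox control 3 alone, Sc5d and Stard4 were called (adjusted p = 0.0428 and 0.0467), beside 5.21% of all genes called higher and 1.18% lower. With all 4 groups in 1 fit, Npc1l1, Hsd17b7, Stard4 and Sc5d passed the test (adjusted p from 0.0181 to 0.0498), beside 9.85% of all genes called higher and 4% lower. Beside these differences, 9 of 10 enterocyte markers lay above 0 with a median of 0.27, close to that of the members, and 4 of them did not overlap. The 5 proximal markers tested all lay above 0 (median 0.68), while of 5 distal markers tested 3 lay above and 2 below (median 0.04). Of the fibroblast and matrix genes, 9 of 10 lay below 0 (median -0.76). None of these passed the test. The values of all 10 smooth muscle markers lay below 0, none past the test, and their sum was 757 to 965 FPKM in flox control and 222 to 660 in CKO control. The mitochondrially encoded share of reads was also lower in every CKO control than in any flox control. CKO control 3 had the highest summed enterocyte level, 8904 FPKM, and the lowest summed crypt cell division level, 13.0 FPKM. The part of these in the genotype differences was not tested.

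In NEC the differences between the genotypes were centred near 0. No member passed the test over 13673 genes, of which 0 were called and 599 had an unadjusted p under 0.05. Of the 27 members 13 lay above 0 and 14 below, with a median of -0.05 against 0.01 over all genes, and differences ran from -0.35 to 0.25 with standard errors of 0.11 to 0.23. Abca1 had the lowest value, -0.35 ± 0.14 (adjusted p = 0.840), and every flox NEC library exceeded every CKO NEC library. Pmvk had the highest, 0.25 ± 0.13 (adjusted p = 0.840), with CKO NEC at 10.1, 11.7 and 10.5 FPKM and flox NEC at 7.45, 9.86 and 9.13, again without overlap. Of all genes, 4.83% were higher and 6.14% lower in CKO NEC without overlap. Insig1 differed by -0.14 ± 0.18, Hsd17b7 by -0.16 ± 0.12 and Npc1l1 by 0.17 ± 0.18, none past the test.

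**Figure D4:**
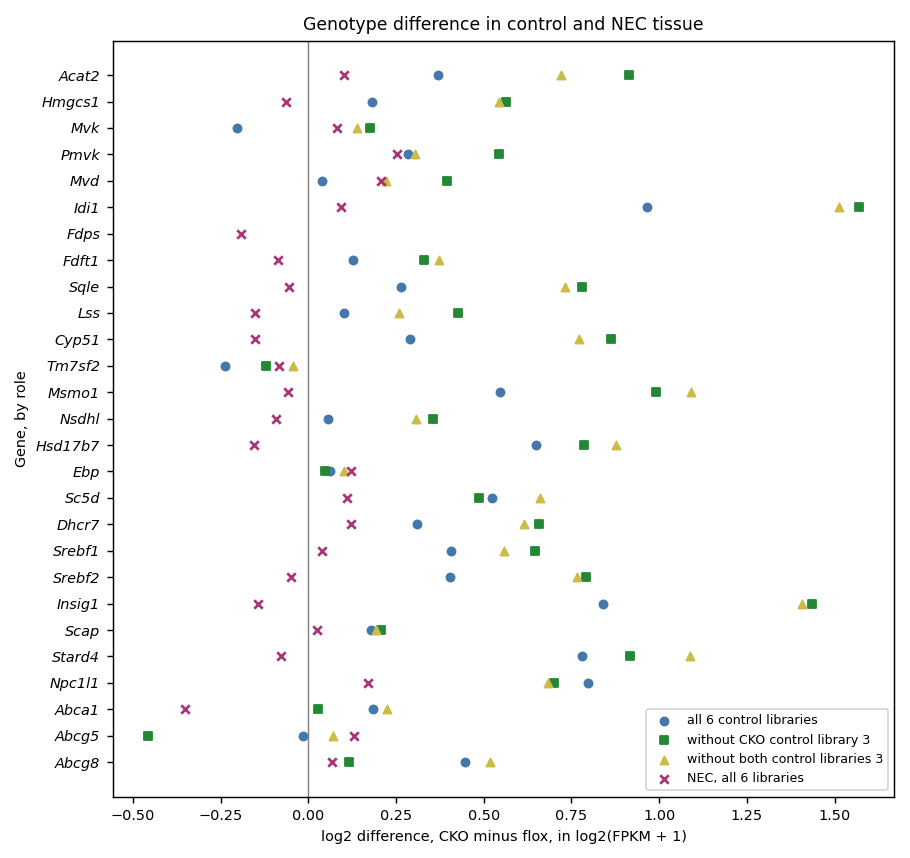
Difference of CKO from flox for each member (log2 FPKM + 1), in NEC (crosses), in control with all 6 libraries (circles), without CKO control 3 (squares) and without CKO control 3 and flox control 3 (triangles), with no error bars. In control 23 of 26 circles lie above 0, the squares and triangles of Idi1 and Insig1 lie furthest right, and in NEC the 27 crosses lie between -0.35 and 0.25.

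The difference between these genotype differences was tested over all 12 libraries. No member passed, and 113 of 14599 genes did (0.774%). An unadjusted p under 0.05 was found for 3 of the 27 members and for 3026 of the 14599 genes, which is the larger share. Of the 27 members 22 lay below 0, beside 7482 of the 14599 genes, with a median of -0.26 against -0.01 over all genes. Hsd17b7 had a value of -0.79 ± 0.22 (adjusted p = 0.0913), Stard4 -0.85 ± 0.30 (adjusted p = 0.148) and Npc1l1 -0.61 ± 0.25 (adjusted p = 0.197), while Insig1 had -0.97 ± 0.56 (adjusted p = 0.346). Without CKO control 3, Idi1 (-1.46, adjusted p = 0.0355), Srebf2 (-0.83, 0.0382) and Insig1 (-1.56, 0.0297) passed, beside 1.4% of all genes called lower. With flox control 3 left out as well, Hsd17b7 passed as well (-1.02, adjusted p = 0.0421), beside 2.72% of all genes called lower. Members were called in this comparison only in settings without CKO control 3, and Hsd17b7 only with flox control 3 left out as well. CKO control 3 was the lowest library for Idi1, Srebf2 and Insig1, so the calls without it are not independent of that choice. Over all genes, 85 were called higher and 203 lower without CKO control 3, and 114 and 421 without flox control 3. In CKO, leaving out CKO control 3 took the median change with NEC from 0.32 to 0.02. Then 5 members were called higher and 1 lower, beside 17.1% and 19.6% of all genes.

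Other genes of the pathway were read from lists. Of 8 further genes of synthesis and SREBP processing that were tested, 5 rose and 1 fell with NEC in flox, and 2 rose and 2 fell in CKO. Lbr, a lamin receptor that is also a sterol reductase, was at 4.19, 4.95 and 2.83 FPKM in flox control and 22.8, 24.2 and 22.1 in flox NEC, with CKO libraries at 6.02, 6.39 and 3.53 and 26.9, 23.4 and 21.3. It rose by 2.29 ± 0.20 (adjusted p = 1.04e-05) and 2.004 ± 0.20 (adjusted p = 5.67e-05). Mbtps1, the first SREBP protease, rose by 0.62 ± 0.08 in flox (adjusted p = 9.99e-05) and 0.39 ± 0.08 in CKO (adjusted p = 0.00276). The mitochondrial thiolase Acat1 fell by 1.18 ± 0.18 in CKO (adjusted p = 0.000498) and by 0.75 ± 0.18 in flox (adjusted p = 0.00401).

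Fatty acid synthesis genes, which SREBP-1 drives, rose in 5 of 8 tested in flox and 2 of 8 in CKO. Acly, which makes cytosolic acetyl-CoA, rose by 1.37 ± 0.20 in flox (adjusted p = 0.000225) and 0.73 ± 0.20 in CKO (adjusted p = 0.0141). The carboxylase Acaca rose by 0.83 ± 0.14 (adjusted p = 0.000449) and 0.64 ± 0.14 (adjusted p = 0.00367), and the fatty acid synthase Fasn by 1.04 ± 0.27 in flox (adjusted p = 0.00730). Of 7 LXR and oxysterol genes tested, 1 rose and 3 fell in flox, and none rose and 2 fell in CKO. Nr1h3, which encodes LXR-alpha, was at 15.2, 13.5 and 22.1 FPKM in flox control and 4.09, 5.53 and 5.58 in flox NEC. It fell by 1.55 ± 0.18 in flox (adjusted p = 5.56e-05) and by 1.496 ± 0.18 in CKO (adjusted p = 0.000178), while Abca1, a target of that receptor, rose in both genotypes. Nr1h2, which encodes LXR-beta, fell by 0.82 ± 0.11 in flox (adjusted p = 0.000119) and by 0.48 ± 0.11 in CKO (adjusted p = 0.00521), and Mylip, an LXR target that marks lipoprotein receptors for breakdown, rose by 0.79 ± 0.23 in flox (adjusted p = 0.0141). Of 13 trafficking and esterification genes, 4 rose and 5 fell in flox, and 1 rose and 3 fell in CKO. Osbp, an oxysterol-binding lipid carrier, rose by 0.59 ± 0.09 in flox (adjusted p = 0.000245), and Gramd1b, which draws cholesterol from the plasma membrane, fell by 1.02 ± 0.16 (adjusted p = 0.000311), as did its relative Gramd1a by 0.87 ± 0.15 (adjusted p = 0.000684). In CKO, Gramd1b fell by 1.31 ± 0.16 (adjusted p = 0.000168), the esterifying enzyme Soat1 by 1.36 ± 0.17 (adjusted p = 0.000206) and the lysosomal carrier Npc2 by 1.38 ± 0.23 (adjusted p = 0.000953). No gene of these 4 lists passed the test between genotypes in control or in NEC.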

How the data were processed

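RNA was isolated from small intestine with Trizol and made into libraries by the NEBNext Ultra II method, per the labels' protocols. The sources used here do not give the aligner, the counter, its use of strand or the genome build. The authors deposited FPKM values in 2 tables, 1 for each condition, with 6 libraries each. Multiplied by gene length, 100% of values were whole multiples of 1 step per library, within 0.05 of a read, which gave the reads per gene. The deposited NEC table sat 0.15 log2 above a scale shared by all libraries, so reads were rescaled to FPKM with median-of-ratios factors over the 12 libraries for the levels, the NEC comparisons and the difference between genotype differences, whereas genotypes were compared on the deposited FPKM within a table. All tests were made on log2(FPKM + 1), for genes of at least 1 FPKM in at least 3 libraries fitted, with limma 3.58.1 in R 4.3.3 (moderated statistics, variance trend, Benjamini-Hochberg threshold 0.05), after a check on simulated data. The simulation drew every gene and group with the same spread setting. It does not cover the wider spread of the sterol enzymes in CKO control.

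The members and lists were chosen with earlier results of these data known, and get no test of their own. Named with each library's value were at least the 3 members of smallest p per role and comparison, and of other lists up to 3 genes past the threshold per comparison. A gene of these lists is counted but not reported here by name. The share of all genes called is given beside the first count of members in each comparison and holds for the role and list counts that follow. The coordinates of 26 of the 27 members in the tables equal those of GENCODE M21 (GRCm38). Promoter windows are those of RefSeq (GRCm38.p6). Alternatives were the pseudocount, the filter, 2 other scalings, the variance trend, limma-voom on the recovered reads, a replicate block, all groups in 1 fit, the deposited values across tables, and each library left out.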

Additional observations from a re-analysis of the deposited data

How the results depend on the processing

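With NEC in flox, 11 of the 15 calls of members held in every planned setting that tested them, and in CKO 4 of 10 (Abca1, Hsd17b7, Mvk and Sqle). Abca1 and Fdps, at mean levels of 3.62 and 0.784 FPKM, were not tested at a mean FPKM of at least 5. Leaving out 1 library at a time gave 10 to 14 members higher and 1 lower in flox, with a median of 0.54 to 0.73, and 5 to 11 higher and 1 to 3 lower in CKO, with a median of 0.02 (without CKO control 3) to 0.58 (without CKO control 2). The 11 came without CKO control 2, and the 1 lower without CKO control 3 or CKO NEC 1. Over all genes, leaving out 1 library gave 3447 to 3816 higher and 3261 to 3568 lower in flox. In CKO it gave 2269 to 2876 higher and 2610 to 3349 lower. In CKO, 4 members were higher with no filter on low values, beside 2615 of all genes. Scaling by total reads without mitochondrial genes gave 12 higher and 0 lower there, and the deposited values gave 1 lower, beside 2543 of all genes. The medians of all genes in these 2 settings were 0.22 and 0.10, against -0.01. With flox control 3 and CKO control 3 left out, Acat2 was called lower with NEC in CKO (-0.51, adjusted p = 0.0451, against 0.04). For genotype in control, 1 member (Npc1l1) was called at a mean FPKM of at least 5, 4 with all groups in 1 fit, 13 with flox control 3 and CKO control 3 left out, and 0 to 2 without 1 library, with a median of 0.16 (without CKO control 1) to 0.55 (without CKO control 3). For genotype in NEC, no member was called without any 1 library, and the median was -0.10 to 0.07. The difference between genotype differences gave 0 to 3 members lower without 1 library (median -0.51 without CKO control 3 to -0.08 without CKO control 2) and 4 with flox control 3 and CKO control 3 left out. Counts over all genes for genotype in control were 0 higher and 1 lower, and became 626 and 134 at a mean FPKM of at least 5, 288 and 72 with voom, 1458 and 593 with all groups in 1 fit, 677 and 153 without flox control 3, and 1045 and 300 with flox control 3 and CKO control 3 left out. For the difference between genotype differences 21 and 92 became 3 and 3 with no filter, 78 and 266 at a mean FPKM of at least 5, 10 and 28 with library medians set equal, 109 and 50 with total reads, 11 and 28 with no variance trend, and 0 to 114 and 0 to 421 without 1 library, while the lower count was 147 with voom and 150 with deposited values, and both rose to 129 and 389 with flox control 3 and CKO control 3 left out. For NEC, 3969 and 3868 in flox became 2211 and 2509 at a mean FPKM of at least 5, and 2946 and 3356 in CKO became 1422 higher there and 4911 and 1933 with total reads. The cause was not tested for these moves.

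The labels do not say whether the replicate numbers pair the libraries, and correlations among so few libraries cannot decide it. Same-numbered libraries of the 2 genotypes had correlations of -0.03 to 0.37 in control and -0.14 to 0.18 in NEC, and 2 of 6 and 3 of 6 libraries correlated best with their own number. With a replicate block, 1 member (Npc1l1, adjusted p = 0.0458) and 700 higher and 203 lower genes were called for genotype in control. For NEC in CKO, 8 members were called higher and 4 lower with the block, where Lss and Abcg8 were added. Beside these, 2983 of all genes were called higher and 3440 lower. Depth limits Fdps most, on 10 to 117 reads.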

Other observations

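The sucrase-isomaltase gene Sis, which the gut turns on around weaning, was at 0.701 to 1.35 FPKM in the 6 control libraries and 36.1 to 164 in the 6 NEC libraries, and the lactase gene Lct was at 68.3 to 366 FPKM in control and 4.93 to 43.1 in NEC. The ileal bile acid importer Slc10a2 was at 6.58 FPKM in flox control 3, 0.0479 to 1.30 in the other 5 control libraries and 6.02 to 20.4 in NEC. These 3 genes were chosen after their values were seen, and their part in the changes of the sterol genes was not tested.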
